A study of Mus musculus with 9 samples.

Results

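Integrins are the adhesion receptors with which leukocytes leave the blood, crawl through tissue and hold on to other cells. Each receptor is a pair of an alpha and a beta chain, and the alpha chain largely decides what is bound. The beta 2 family is restricted to leukocytes and binds intercellular adhesion molecules (ICAMs), complement fragments and fibrinogen, while pairs with beta 1, beta 7 or alpha v bind fibronectin, VCAM-1, MAdCAM-1, E-cadherin or vitronectin. The transcripts of 10 such chains were followed, Itgal, Itgam, Itgax, Itgad, Itgb2, Itga4, Itgb1, Itgb7, Itgae and Itgav. They were listed by name, with earlier results of these data known. All 10 were measured, out of 22180 genes, each by the brightest probe set that names that gene alone.

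The mice were male C57BL/6J animals, 8 weeks old, and their plantar hindpaw had been incised 24 h before the cells were taken. They were CD11b+Ly6G- cells, that is, myeloid cells that carry the Itgam product and lack a neutrophil surface protein, and they were divided by flow cytometry into Ly6C high, medium and low gates. The gates share genotype, wound and time and were separated by surface Ly6C, a glycoprotein abundant on monocytes newly arrived from the blood. Each gate had 3 arrays, 9 in all, and no unwounded tissue is among them. The values are log2 intensities, so a difference of 1 is a doubling of signal. The array medians lay between 3.93 and 4.10 over all probe sets and between 4.16 and 4.30 over the genes tested. The latter is the array median meant below. Nothing in the labels says that replicates are separate animals, so p-values measure only how far these samples spread, and that spread may be technical.

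The gate selects cells on the product of 1 of the 10 genes, since CD11b is encoded by Itgam. Its transcript was bright on every array, from 10.43 to 11.14. Ly6g was dim, between 2.74 and 4.61, and Ly6c2, which encodes the Ly6C protein, averaged 12.27 on the high arrays, 11.22 on the medium arrays and 8.33 on the low arrays, where replicate 3 (9.40) lay above the other low arrays (7.69 and 7.90).

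Over the 3 gates, 3 of the 10 chains differed by a moderated F test (limma, Benjamini-Hochberg adjustment over all genes), against 4% of all genes. They were Itgax (adjusted p = 0.000941), Itgal (adjusted p = 0.00662) and Itgb7 (adjusted p = 0.0142). Each had its own course: Itgal was lower in medium and low than in high, Itgb7 was lower in low than in both other gates, and Itgax was higher in low than in both other gates. The shared beta 2 chain showed no such course, with gate means of 10.42, 10.43 and 10.39 for high, medium and low. The other 7 chains did not pass this test, with limma adjusted p-values from 0.111 for Itgav to 0.977 for Itgb2. The 4% is over all genes, dim ones included, while each chain but Itgad and Itgae was brighter than at least 78.15% of genes. With genes under a log2 value of 6 left out, 994 of 6306 genes passed the F test.

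**Figure D1:**
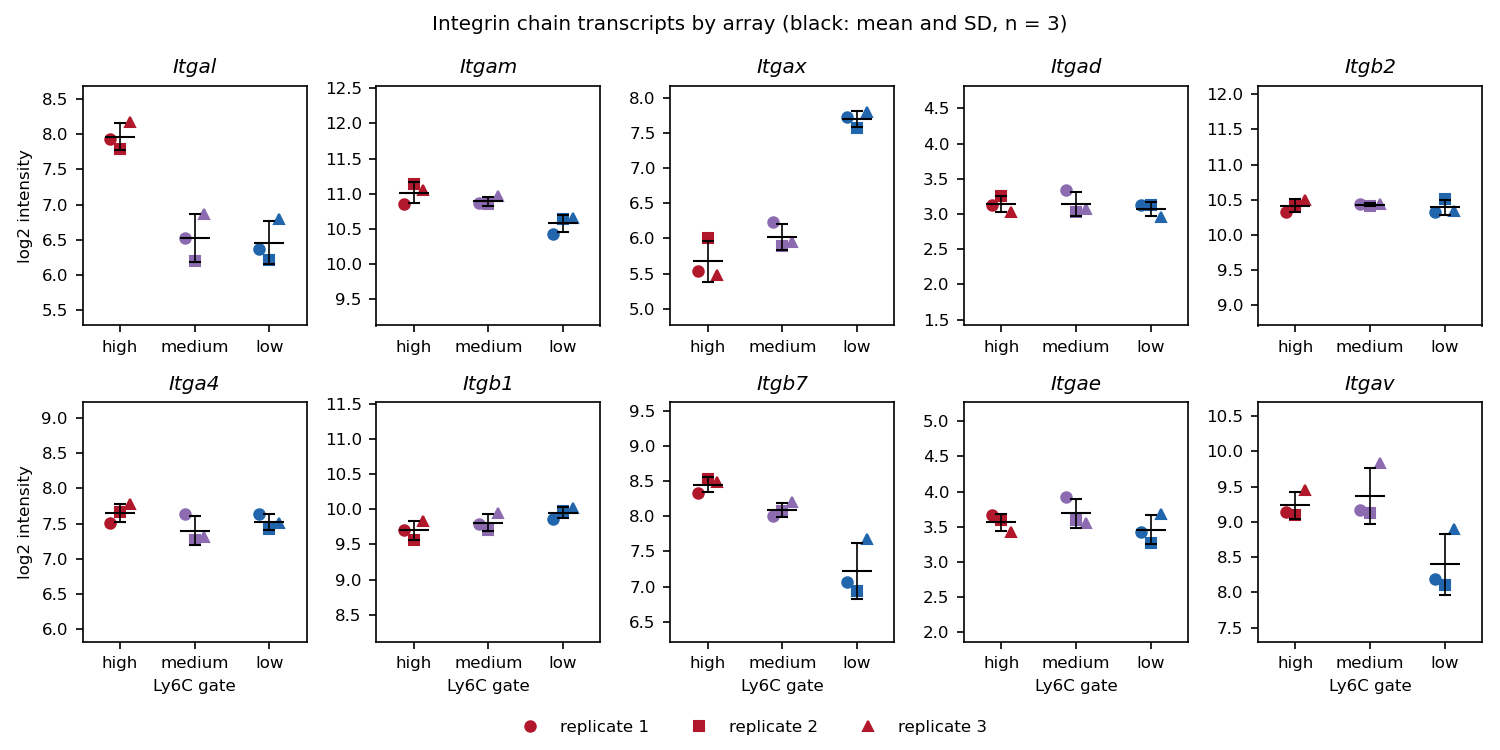
Log2 intensity of each integrin chain on every array, by Ly6C gate (3 arrays each; point shapes give the replicate number, black bars the mean and SD), with the same span on every vertical axis. Itgal separates high from the other gates. Itgax, Itgb7, Itgam and Itgav separate low from the other gates, although Itgam and Itgav did not pass the F test. The share of all genes that separate in this way was not computed. Itgb7 also separates high from medium, and Itgb2 stays between 10.32 and 10.52 on all 9 arrays.

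Between low and high, 1 of the 10 chains was higher in low (background 3.35% of all genes) and 2 were lower (background 2.32%). The median difference of the 10 was -0.11, against 0.01 over all genes tested. Between medium and high, 0 were higher (background 0.0406%; also 0 at an unadjusted p under 0.05 in the limma fit) and 1 was lower (background 0.198%). Between low and medium, 1 was higher (background 1.38%) and 1 was lower (background 0.541%). These comparisons share arrays with each other and are not independent. At an unadjusted p under 0.05 in limma, 10.4% of all genes were higher and 7.46% lower in low than in high. The same shares were 3.72% and 3.81% for medium against high and 8.54% and 5.53% for low against medium. The share of all genes whose arrays did not overlap between gates was not computed. Where a chain is said not to overlap, this is a description only.

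Promoter windows of 6 of the 10 genes were found in the RefSeq table (build GRCm38.p6, 250 bases before to 50 after the start site). Itgam and Itgax are shown because they are adjacent protein-coding genes on chromosome 7 whose transcripts took different courses, and Itgb7 because its transcript was lower in low. Capitals mark GAGGAA on either strand, the core bound by PU.1, a transcription factor of the myeloid lineage. Each window is printed in the direction of transcription. The Itgam window is chr7:128062390-128062689 on the plus strand, the Itgax window chr7:128129300-128129599 on the plus strand, and the Itgb7 window chr15:102231886-102232185 on the minus strand.
Itgam: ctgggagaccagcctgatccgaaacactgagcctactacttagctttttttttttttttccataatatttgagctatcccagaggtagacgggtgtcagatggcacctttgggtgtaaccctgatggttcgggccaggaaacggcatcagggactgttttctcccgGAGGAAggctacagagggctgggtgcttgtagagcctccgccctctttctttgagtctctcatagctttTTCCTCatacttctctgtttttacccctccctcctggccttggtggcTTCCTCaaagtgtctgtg
Itgax: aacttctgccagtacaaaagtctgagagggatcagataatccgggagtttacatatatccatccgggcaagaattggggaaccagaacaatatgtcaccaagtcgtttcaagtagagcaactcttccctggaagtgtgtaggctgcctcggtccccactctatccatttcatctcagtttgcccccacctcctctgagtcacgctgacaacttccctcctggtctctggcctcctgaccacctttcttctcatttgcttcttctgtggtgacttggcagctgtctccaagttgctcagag
Itgb7: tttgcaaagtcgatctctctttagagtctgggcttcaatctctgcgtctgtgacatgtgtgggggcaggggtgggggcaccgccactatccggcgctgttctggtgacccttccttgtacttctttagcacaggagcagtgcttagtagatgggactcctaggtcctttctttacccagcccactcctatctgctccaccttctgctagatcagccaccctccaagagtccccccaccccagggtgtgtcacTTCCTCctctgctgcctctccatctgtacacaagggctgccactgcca

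The PU.1 core was matched 3 times in the Itgam window, 0 times in the Itgax window and 1 time in the Itgb7 window. Of 32851 promoter windows of the same length, 28.3% held at least 1 match, so its presence is common. The Itgax window instead held 1 match of the RUNX core TGTGGT, which 16.8% of windows hold on either strand. It also held 1 match of the AP-1 element TGANTCA, found in 7.81% of windows. A match is a run of letters and was not tested for binding in these cells, and 0 matches say nothing of the factor.

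Itgal, the alpha chain of LFA-1, binds ICAMs on endothelium and on other leukocytes. In high its arrays stood at 7.94, 7.79 and 8.17, in medium at 6.52, 6.19 and 6.86, and in low at 6.37, 6.21 and 6.80 (replicates 1, 2 and 3). Every array of high lay above every array of the other gates, while medium and low overlapped. The gate means were 7.97 ± 0.19 (SD, n = 3), 6.53 ± 0.34 and 6.46 ± 0.31. Relative to high, Itgal was 2.84-fold lower in low (log2 difference -1.51, SE 0.20, limma adjusted p = 0.00397) and 2.71-fold lower in medium (-1.44, adjusted p = 0.0327). Low and medium differed by -0.07, with an interval from -0.53 to 0.40 (limma adjusted p = 0.931). Medium thus lay 95.6% of the way from high to low.

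The call of Itgal between medium and high was lost (limma adjusted p 0.0679 to 0.166) when any array except low replicate 3 was left out, most with medium replicate 1 removed, and with those 2 gates alone (0.125). With 1 array left out its difference stayed between -1.61 and -1.27. The call between low and high was kept without each array in turn. Summed fibroblast markers fell over the same gates, with log2 sums of 11.56 to 12.71 on high arrays, 9.46 to 9.52 on medium arrays and 8.49 to 8.63 on low arrays. Of 8 fibroblast genes, 8 were lower in low than in high and 7 were lower in medium than in high. Within high, the fibroblast sums were 12.71, 12.21 and 11.56 on replicates 1, 2 and 3, and Itgal stood at 7.94, 7.79 and 8.17. T cells also make LFA-1. Of 5 T cell genes limma called 0 between any gates, with 0 also at an unadjusted p under 0.05. Cd3d, Cd3e and Cd3g were below the array median on all 9 arrays, while Cd2 (5.02 to 6.61) and Cd5 (4.48 to 5.14) were above the array medians. The summed classical monocyte markers also differed between high (13.34 to 13.53) and low (11.76 to 11.87), with medium between them (12.69 to 12.84). That sum includes Ly6c2, whose protein defined the gates, so its order was partly fixed by the sort. Of its 5 genes limma called 4 lower in low than in high, Ly6c2 among them. F13a1 was 0.88 higher in low and did not pass (limma adjusted p = 0.0541). The part of other cells in the Itgal difference was not tested, and in sorted pools fewer expressing cells and less RNA per cell cannot be told apart.

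Itgax encodes CD11c, the alpha chain best known from dendritic cells and also made by many tissue macrophages. Its arrays stood at 5.54, 6.00 and 5.48 in high, 6.23, 5.89 and 5.95 in medium, and 7.73, 7.57 and 7.80 in low. The low arrays lay above all others, and high and medium overlapped. The gate means were 5.67 ± 0.29 (SD, n = 3), 6.02 ± 0.18 and 7.70 ± 0.12. Low exceeded high 4.07-fold for Itgax (log2 difference 2.02, SE 0.16, limma adjusted p = 0.000387) and exceeded medium 3.19-fold (1.67, SE 0.16, adjusted p = 0.00363). Medium and high differed by 0.35, with an interval from -0.01 to 0.71 (limma adjusted p = 0.667). Medium lay 17.2% of the way from high to low.

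The Itgax calls were kept without each array in turn and under every other alternative tried. Dendritic cell and tissue macrophage markers were higher in the same gate. Of 6 dendritic cell genes 4 were higher in low than in high, and their summed level was 7.89 to 8.51 on high arrays, 8.47 to 8.77 on medium arrays and 10.89 to 11.40 on low arrays. Zbtb46, a transcription factor that marks the conventional dendritic lineage, was dim, at most 5.04 on any array, and did not pass (limma adjusted p = 0.108 for low versus high). Of 8 tissue macrophage genes 7 were higher in low than in high, with sums of 10.98 to 11.48, 11.75 to 12.30 and 13.02 to 13.33. The share of either cell type in the Itgax difference was not tested.

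**Figure D2:**
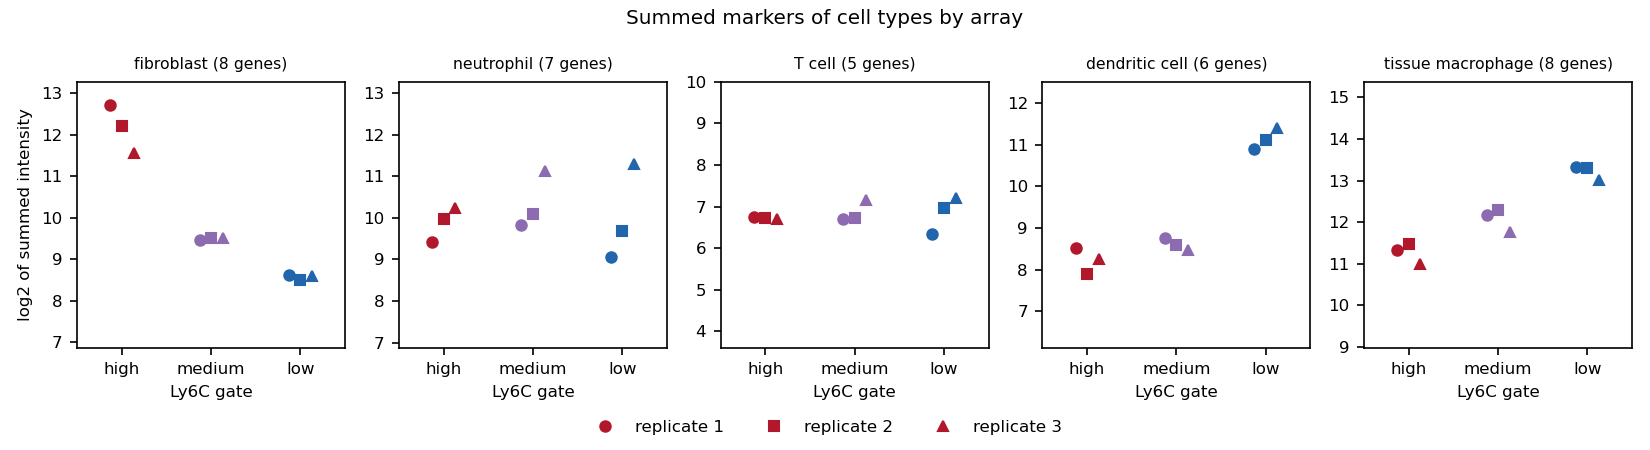
Log2 of the summed intensity of marker genes of 5 cell types on each array, by Ly6C gate (colours) and replicate number (point shapes), with the same span on every vertical axis. Fibroblast markers are highest in high (11.56 to 12.71), dendritic cell and macrophage markers are highest in low, and neutrophil markers are highest on replicate 3 of each gate.

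Itgam, the alpha chain of Mac-1, binds complement-coated particles, fibrinogen and ICAM-1. Its arrays stood at 10.85, 11.14 and 11.06 in high, 10.87, 10.85 and 10.97 in medium, and 10.43, 10.64 and 10.66 in low. The low arrays lay below all others, by a small margin, while high and medium overlapped. The low mean was 1.35-fold under that of high (log2 difference -0.44, SE 0.11, limma adjusted p = 0.0579), which did not pass. With 1 array left out it passed in 1 of 9 fits, without high replicate 1 (0.0461), and was at most 0.179, without low replicate 1. It passed in 2 of 10 other alternatives, with genes under a log2 value of 6 left out (0.0440) and with a trended prior (0.0422).

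Itgb2, the beta 2 chain that Itgal, Itgam, Itgax and Itgad all need to reach the surface, had the narrowest range of the 10. Its arrays stood at 10.32, 10.43 and 10.50 in high, 10.44, 10.41 and 10.44 in medium, and 10.33, 10.52 and 10.34 in low. All 3 gates overlapped. The difference of low minus high was -0.02, with an interval from -0.24 to 0.19 (limma adjusted p = 0.955), and its sign changed with quantile normalization and with single arrays left out.

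Itgad, the alpha chain CD11d of macrophages such as those of the splenic red pulp, was dim. It ranged from 2.96 to 3.33 and lay below the array median on all 9 arrays, so a difference between gates was not measurable at this signal. The low minus high difference was -0.07 (limma adjusted p = 0.865).

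**Figure D3:**
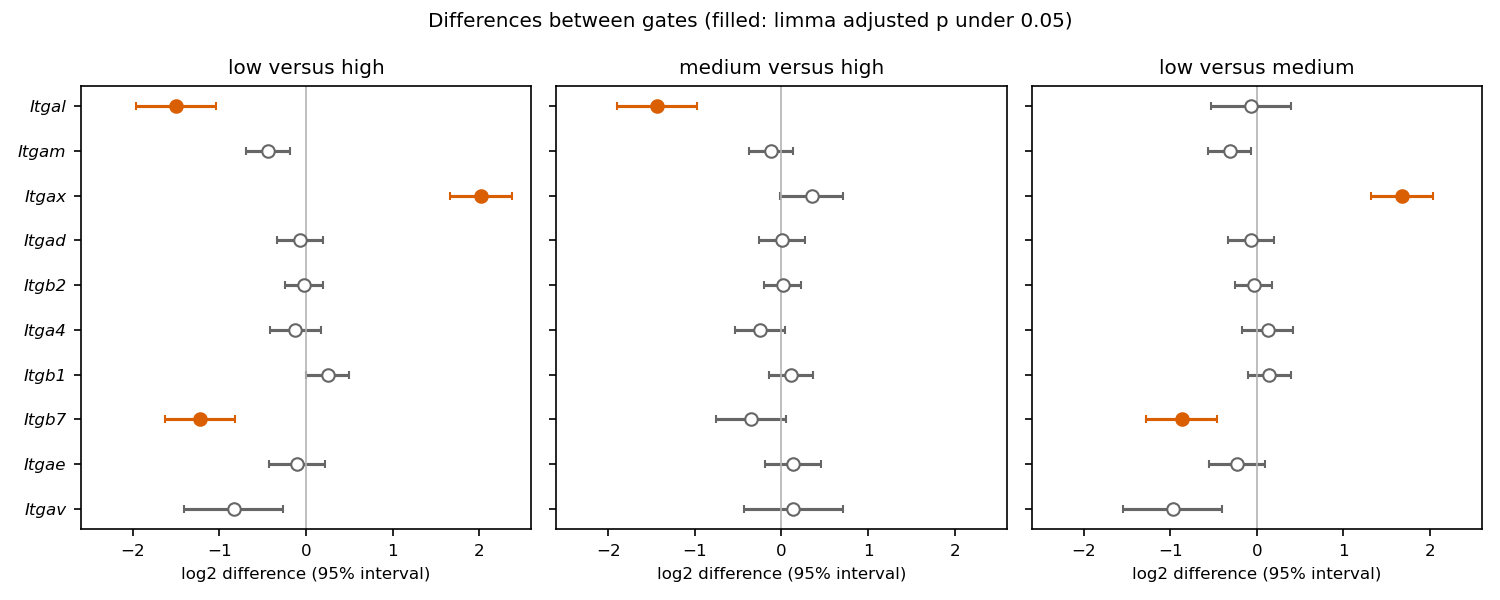
Log2 difference of each integrin chain in the 3 comparisons of gates, with 95% intervals from the limma fit; filled points passed an adjusted p of 0.05. Itgax (2.02), Itgal (-1.51) and Itgb7 (-1.22) passed for low versus high, only Itgal for medium versus high, and Itgax and Itgb7 for low versus medium.

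Itgb7 pairs with alpha 4 to bind the gut addressin MAdCAM-1 and with alpha E to bind E-cadherin. Its arrays stood at 8.33, 8.53 and 8.48 in high, 8.01, 8.07 and 8.20 in medium, and 7.06, 6.93 and 7.67 in low. The 3 gates did not overlap and ran in the order high, medium, low. The gate means were 8.45 ± 0.11 (SD, n = 3), 8.09 ± 0.10 and 7.22 ± 0.40. Low fell below high 2.34-fold for Itgb7 (log2 difference -1.22, SE 0.18, limma adjusted p = 0.00587) and below medium 1.83-fold (-0.87, adjusted p = 0.0493). Medium and high differed by -0.35, with an interval from -0.76 to 0.05, and did not pass (limma adjusted p = 0.705).

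Low replicate 3, the low array with the most Ly6c2, stood apart for Itgb7 and lay nearest to medium; its part was not tested beyond leaving it out. Without it the low versus medium call strengthened (limma adjusted p = 0.00616), and without any of the other 8 arrays in turn the call was lost (0.0716 to 0.172, the highest with low replicate 1 removed). It was also lost with arrays centred (0.0525), with a trended prior (0.0560) and with those 2 gates alone (0.116). The low versus high call was kept without each array in turn. The classical monocyte sum (which includes Ly6c2, whose protein defined the gates) and the fibroblast sum, given above with Itgal, were also highest in high and lowest in low. Mast cells carry beta 7 as well, and of 6 mast cell genes 1, Kit, was higher in low than in high and 0 were lower, while 3 were below the array median on all arrays. The part of these cells in the Itgb7 difference was not tested.

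Itga4, the alpha chain of VLA-4, binds VCAM-1 and fibronectin when paired with beta 1. Its arrays stood at 7.51, 7.66 and 7.77 in high, 7.64, 7.26 and 7.30 in medium, and 7.64, 7.42 and 7.51 in low, and the gates overlapped. Low and high differed by -0.12, with an interval from -0.42 to 0.17 (limma adjusted p = 0.735). Itgb1, the beta chain shared with many matrix receptors, stood at 9.71, 9.56 and 9.83 in high, 9.79, 9.70 and 9.94 in medium, and 9.87, 9.97 and 10.01 in low. The low arrays lay above those of high, but medium overlapped both. The difference of low minus high was 0.25 (SE 0.11, limma adjusted p = 0.276) and did not pass.

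Itgae encodes the alpha E chain CD103, known from epithelial T cells and a subset of dendritic cells. It ranged from 3.28 to 3.92, below the array median on all 9 arrays, and a difference was not measurable at this signal (low minus high -0.10, limma adjusted p = 0.820). Xcr1, Cadm1, Tlr3 and Wdfy4, markers of the dendritic subset that carries CD103, summed to 7.53 to 7.63 on high arrays, 7.56 to 7.68 on medium arrays and 7.59 to 7.73 on low arrays. Wdfy4, level at 6.98 to 7.08, was the brightest and made up most of that sum, so the sum says little of the subset. Of these 4 genes, Cadm1 was higher in low than in high and 0 were lower. Cadm1 was dim, with gate means of 3.50 in high and 4.07 in low. Tlr3 was 0.90 higher in low and Xcr1 0.48 lower, and neither passed (limma adjusted p = 0.124 and 0.402).

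Itgav, the alpha v chain, binds vitronectin, MFG-E8 and latent TGF-beta. Its arrays stood at 9.14, 9.10 and 9.46 in high, 9.16, 9.12 and 9.83 in medium, and 8.19, 8.10 and 8.90 in low. All low arrays lay below all others, and replicate 3 was the highest array in each gate. The low mean was 1.79-fold under that of high (log2 difference -0.84, SE 0.25, limma adjusted p = 0.1003) and 1.96-fold under that of medium (-0.97, adjusted p = 0.101), and neither passed.

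With 1 array left out, both Itgav differences passed in 1 of 9 fits, without low replicate 3 (limma adjusted p = 0.0315 and 0.0359). Both were at most 0.284, without low replicate 1. Of 10 other alternatives, both passed in 3. These were the mean of the 2 Itgav probe sets (0.0245 and 0.0158), genes under a log2 value of 6 left out (0.0434 and 0.0410) and a fixed replicate block, given at the end. Itgav was the only one of the 10 genes with a second probe set. That probe set stood at 6.68, 6.59 and 6.67 in high, 7.36, 6.55 and 7.60 in medium, and 5.92, 5.65 and 5.20 in low. Low replicate 3 was the lowest low array there and the highest on the brighter probe set, so the probe sets disagree on that array and share the lower level in low. Summed neutrophil markers were also highest on replicate 3 of each gate (10.23 in high, 11.13 in medium and 11.29 in low, against 9.06 to 10.09 on the other arrays). On medium and low replicate 3 that sum came mostly from S100a8 (10.07 and 10.37) and S100a9 (9.29 and 9.42). Ngp was below the array median throughout. With low set against high, limma called 2 of the 7 neutrophil genes. Both had less signal in low, Mmp8 (-2.78, limma adjusted p = 0.00222) and Csf3r (-1.13, adjusted p = 0.0269). Which cells gave the neutrophil sum was not tested. With medium and low replicate 3 left out together, an alternative chosen after the data were seen, Itgav passed for low versus high (-1.09, limma adjusted p = 0.0110) and for low versus medium (-0.995, adjusted p = 0.0477).

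To compare the chains of a receptor with each other, the log2 value of the beta chain was subtracted from that of an alpha chain on the same array. The size of that difference depends on the probe sets, so only its change between gates was read. An exact permutation test of the F statistic over the gates (1680 assignments, smallest possible p = 0.00357), adjusted over 8 pairs, passed for 6 pairs. Itgad and Itgae were below the array median throughout, so a pair with either follows its beta chain and says nothing of balance. Over the other 6 pairs, an alternative chosen after the data were seen, 5 passed. No share over pairs of other genes was computed to set beside these counts. Each p-value is for a difference over the 3 gates, not for low against high alone. Relative to Itgb2, Itgal was lower in low than in high by a log2 value of -1.48 (exact permutation adjusted p = 0.0457) and Itgax was higher by 2.05 (adjusted p = 0.0286). Itgb2 was level over the gates, so these shifts repeat those of Itgal (-1.51) and Itgax (2.02) alone and are not separate results. Itgam shifted against Itgb2 by -0.41 (exact permutation adjusted p = 0.0143), from 0.60 ± 0.10 (SD, n = 3) in high to 0.46 ± 0.06 in medium and 0.18 ± 0.12 in low. These 3 gates did not overlap for Itgam minus Itgb2, although Itgam alone did not pass.

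The remaining pairs gave the balance of the beta 1 and beta 7 receptors. Itga4 minus Itgb7 was higher in low than in high by 1.10 (exact permutation adjusted p = 0.0457 over the gates). That change follows the lower Itgb7 (-1.22), while Itga4 alone differed by -0.12. Itga4 against Itgb1 moved by -0.37 and did not pass (adjusted p = 0.167). Itgav fell against Itgb1 by 1.09 (exact permutation adjusted p = 0.0476). Itgav alone did not pass the moderated F test, which was adjusted over all genes and not over 8 pairs. With 1 array left out, between 2 and 6 of the 8 pairs passed, and the directions of these 5 were kept. Itgam minus Itgb2 was lost only without high replicate 2 (exact permutation adjusted p = 0.0643) and Itgax minus Itgb2 only without high replicate 3 (0.0571). Itgal minus Itgb2 was lost without any of the high arrays or medium replicates 1 and 3 (0.0571 to 0.0643). Itga4 minus Itgb7 and Itgav minus Itgb1 were lost without any high or medium array (0.0571 to 0.0905 for both).

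**Figure D4:**
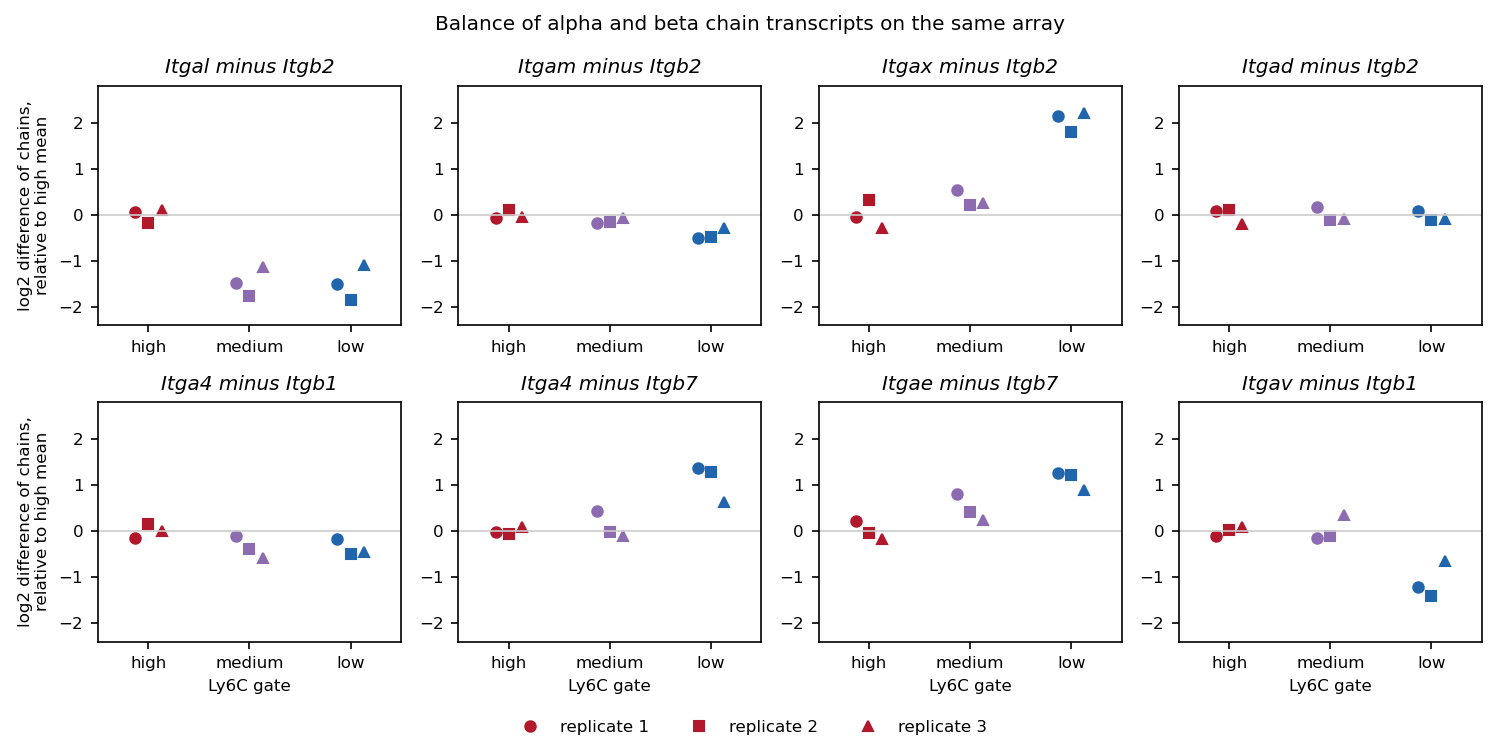
Log2 value of an alpha chain minus that of a beta chain on the same array, for 8 known receptor pairs, by Ly6C gate and replicate number (point shapes), set relative to the mean of high. Itgax minus Itgb2 is 2.05 higher in low than in high, Itgal minus Itgb2 is already lower in medium (-1.45), and the pairs with Itgad or Itgae, dim on all arrays, follow their beta chain.

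The genes whose log2 values followed each changed chain most closely over the 9 arrays were read as a description. For Itgal they were Myl12b (Pearson r = 0.981), Fosl2 (0.964) and Fgl2 (0.963). For Itgax they were Ctnnd2 (r = 0.988), Ap1b1 (0.986) and Cspg4 (0.983). For Itgb7 they were Rhou (r = 0.992), Slfn1 (0.988) and Klra2 (0.987). The arrays share 3 gates, so these values reflect the gate differences as well as the spread within gates.

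Among the chains outside the 10, 1 of 10 measured alpha chains was higher in low than in high and 1 lower, with a median difference of -0.17 against 0.01 over all genes. Itga9, which binds VCAM-1 and tenascin, stood at 5.23, 5.02 and 4.53 in high, 5.51, 5.07 and 5.26 in medium, and 6.13, 6.12 and 6.53 in low. Low exceeded high 2.52-fold for Itga9 (limma adjusted p = 0.00655). Its low versus medium call (0.98, adjusted p = 0.0482) was lost when any array except high replicates 1 and 3 was removed (0.0745 to 0.154). Itga1, a collagen receptor chain, stood at 7.36, 7.38 and 7.91 in high, 7.13, 6.79 and 7.73 in medium, and 6.09, 5.47 and 6.39 in low.

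Low fell below high 2.96-fold for Itga1 (limma adjusted p = 0.0172), a call lost without high replicate 3 (0.0610), low replicate 1 (0.0572) or low replicate 2 (0.0572). Of 5 other beta chains 0 were higher, also at an unadjusted p under 0.05 in limma, and 1 was lower (median -0.36). This was Itgb5, a partner of alpha v, at 8.48, 8.11 and 7.87 in high, 8.30, 8.27 and 8.29 in medium and 7.44, 7.61 and 7.47 in low (log2 difference -0.65 from high, adjusted p = 0.0365, and -0.78 from medium, adjusted p = 0.0350). Its low versus high call was lost without any array except high replicate 3 (limma adjusted p 0.0593 to 0.122). Its low versus medium call was lost when any array except high replicates 1 and 3 was removed (0.0559 to 0.126). The beta chain median was the value of Itgb4, which was near the array median (4.43 in high and 4.07 in low). Itgb3 (4.14 and 4.15) and Itgb6 (3.06 and 3.07) were dim too. Among the alpha chains, Itga2, Itga2b, Itga3, Itga8 and Itga11 had gate means under 4.16, so both medians rest partly on dim chains. Itga5, the fibronectin receptor chain, stood at 10.36 ± 0.17 (SD, n = 3) in high and 9.78 ± 0.22 in low and did not pass (limma adjusted p = 0.0532). Between medium and high, limma passed 0 of these 15 chains, against 1 at an unadjusted p under 0.05, Itgb4.

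Ligands carried by cells were read in the same sort. Of 11 genes, Cdh1 was higher in low than in high, and Thy1 and Vcam1 were lower (median -0.17). Between medium and high limma passed 0 of the 11, against 0 higher and 4 lower at an unadjusted p under 0.05 (3.72% and 3.81% of all genes). Cdh1, which encodes the alpha E beta 7 ligand E-cadherin, stood at 5.87, 5.61 and 5.87 in high, 5.39, 5.20 and 5.59 in medium, and 6.63, 6.55 and 6.85 in low. Low exceeded high 1.86-fold for Cdh1 (limma adjusted p = 0.00674) and medium 2.44-fold (adjusted p = 0.00417), opposite in direction to Itgb7. Cd207, a lectin of Langerhans cells, which carry E-cadherin, was higher in the same gate (4.38 ± 0.30 (SD, n = 3) in high and 7.22 ± 0.16 in low). Epcam, the other Langerhans cell gene measured, was at 4.02 and 4.22 and did not pass (limma adjusted p = 0.718). The part of these cells in the Cdh1 difference was not tested.

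Vcam1, the ligand of the alpha 4 beta 1 receptor, was 2.75-fold lower in low than on the high arrays (limma adjusted p = 0.0400). That call was lost when any array except high replicate 2 and medium replicates 2 and 3 was removed (0.0644 to 0.135). Thy1, a ligand of Mac-1 found on fibroblasts and T cells, was 4.53-fold lower (limma adjusted p = 0.0176), a call lost with low replicate 1 (0.0521) or 2 (0.0533) removed and with those 2 gates alone (0.0732). Thy1 varied within high in the order of the fibroblast sum, at 8.17, 6.95 and 6.25 on replicates 1, 2 and 3 against sums of 12.71, 12.21 and 11.56, and the part of fibroblasts in its difference was not tested. Icam1, the main ligand of LFA-1 and Mac-1, stood at 9.55 ± 0.19 (SD, n = 3), 9.09 ± 0.07 and 9.38 ± 0.06 in high, medium and low and did not pass (limma adjusted p = 0.533 for low versus high).

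Of 9 measured ligands in matrix and plasma, 1 was higher in low and 0 were lower, against 1 lower at an unadjusted p under 0.05 in limma (median -0.12). Mfge8, a secreted bridge between dying cells and alpha v receptors, stood at 7.22, 6.20 and 6.83 in high, 7.19, 6.36 and 6.02 in medium, and 8.90, 8.78 and 9.34 in low. Low exceeded high 4.78-fold for Mfge8 (limma adjusted p = 0.00595) and medium 5.6-fold (adjusted p = 0.0102). Itgav lay the other way on all low arrays but did not pass. Fn1, which encodes fibronectin, was bright in every gate (11.26 to 11.90) and did not pass (limma adjusted p = 0.766 for low versus high).

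**Figure D5:**
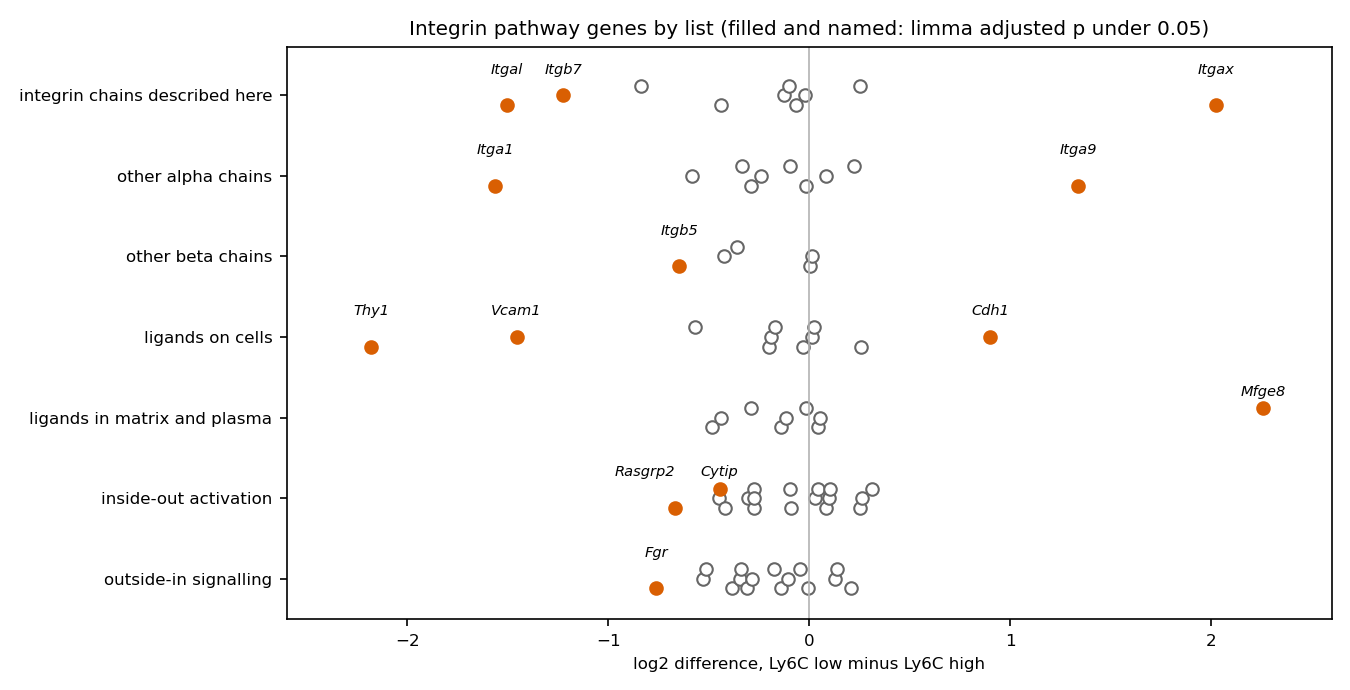
Log2 difference of low minus high for the 10 integrin chains and for 6 lists of related genes, 1 point per gene; filled points with names passed a limma adjusted p of 0.05. Most points lie within 1 log2 unit of 0, and the named genes run from Thy1 (-2.18) to Mfge8 (2.26).

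Inside the cell, talin and kindlin switch integrins on and kinases of the Src and Syk families carry the signal inward. Of 18 measured activation genes, 0 were higher in low than in high and 2 were lower, with a median of -0.10; at an unadjusted p under 0.05 the limma counts were 0 and 6 (10.4% and 7.46% of all genes). Rasgrp2, the exchange factor that loads Rap1 ahead of talin, had gate means of 5.69 ± 0.12 (SD, n = 3), 5.27 ± 0.11 and 5.03 ± 0.10 in high, medium and low (log2 difference -0.67 for low versus high, limma adjusted p = 0.00867). Cytip, an inhibitor of the LFA-1 activator cytohesin, stood at 8.51, 8.50 and 8.50 in high, 7.86, 7.87 and 7.61 in medium, and 8.19, 8.05 and 7.93 in low. It was lower in medium than in high by -0.72 (limma adjusted p = 0.0404) and lower in low by -0.45 (adjusted p = 0.0460). The first Cytip call was lost with each array removed in turn (0.0585 to 0.132), and the second with any array except medium replicate 3 removed (0.0590 to 0.126).

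Tln1 and Fermt3, which encode talin and the leukocyte kindlin, differed between low and high by 0.08 (limma adjusted p = 0.831) and -0.10 (adjusted p = 0.861). Of 16 measured genes that carry signals inward from the receptor, 0 were higher in low than in high and 1 was lower, with a median of -0.23, against 0 and 4 at an unadjusted p under 0.05. The lower gene was Fgr, a Src family kinase downstream of beta 2, with gate means of 8.00 ± 0.09 (SD, n = 3), 7.51 ± 0.11 and 7.23 ± 0.25 in high, medium and low (limma adjusted p = 0.0137). Its call was lost without low replicate 2 (0.0557). The adaptors Tyrobp and Fcer1g were bright and differed by -0.17 (limma adjusted p = 0.417) and -0.05 (adjusted p = 0.873). Between low and medium, limma passed 0 genes of either list, against 4 higher and 3 lower activation genes and 4 lower signalling genes at an unadjusted p under 0.05 (8.54% of all genes higher and 5.53% lower).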

How the data were processed

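Affymetrix arrays of 9 samples (3 per Ly6C gate) were used, made from amplified RNA per the labels' protocols. The values are log2 intensities per probe set deposited by the authors, from RMA per the submitters' processing notes. RMA version and settings, and the array's genome build, are not given in the sources used here. Values were used as deposited, with no pseudocount.

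Of 41345 probe sets, 23521 with a single symbol gave 22180 genes, each by its brightest probe set over the 9 arrays. All 9 arrays entered 1 fit without a block in R 4.3.3 with limma 3.58.1 (lmFit, eBayes, two-sided, 6 residual degrees of freedom). P-values were adjusted by Benjamini-Hochberg over all genes, with a threshold of 0.05. The procedure was tested on simulated data. Summed markers are log2 of the sum of linear intensities.

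All 10 integrin chains are named, with every related gene past the threshold (up to 4 per list and direction), the transcripts of the sorted proteins and the 3 most alike genes of each changed chain. A few further ligands and adaptors were named after their values were seen. Members and lists were chosen with earlier results of these data known. Lists held genes not analysed here. For arrays, their number limits the precision.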

Additional observations from a re-analysis of the deposited data

How the results depend on the processing

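Each array was left out in turn, and normalization, scaling, probe set, filter, prior, weights, block and arrays fitted were varied. The chains called over the gates (3) ranged from 2 to 4 without 1 array, and the low versus high calls of Itgax, Itgal and Itgb7 were kept in all alternatives. Members called lower in low versus high numbered 2, from 2 to 3 without 1 array, and 4 with genes under a log2 value of 6 left out. Members called lower in medium versus high numbered 1, from 0 to 1 without 1 array, and 0 with those 2 gates alone or without the 2 arrays with most neutrophil marker signal. For low versus medium the number was 1, from 0 to 2 without 1 array. It was 0 with arrays centred, with a trended prior, with those 2 gates alone or with a log2 difference of at least 1. It was 2 with the mean of probe sets, with genes under a log2 value of 6 left out, or without those 2 arrays. The chain pairs called ranged from 2 to 6 without 1 array. The cause of these changes was not tested.

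Signs turned only for differences that were not called. For low versus high, Itgb2 was 0.0403 with quantile normalization, 0.0047 without the 2 arrays, and -0.0848 to 0.0188 without 1 array. For medium versus high, Itgad was -0.0421 with quantile normalization, -0.0399 with centring, -0.0268 with array weights and -0.0907 to 0.0653 without 1 array. In that comparison Itgb2 was -0.0317 with centring and -0.0340 to 0.0555 without 1 array. Without the 2 arrays, Itgav was -0.0912 and Mfge8 0.0229; without 1 array they spanned -0.0912 to 0.2632 and -0.5628 to 0.0229, and Itgb5 -0.0056 to 0.3016. For low versus medium, Itgal spanned -0.2365 to 0.1027 and Itgad -0.1319 to 0.0241 without 1 array. Itgad minus Itgb2 spanned -0.1386 to 0.0105.

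Gates share replicate numbers, but same-numbered arrays deviated together (r over 0.1) in only 4 of 9 pairs. The 3 of 9 arrays that correlated best with their own number in both other gates were replicate 3 of each gate. Their deviations correlated at r = 0.309 (high and medium), 0.163 (medium and low) and 0.106 (high and low). The other arrays did not do so, and the numbers were not taken as pairs. What the replicate 3 arrays share was not tested. With a fixed block for replicate number, 2 members were called lower in low versus medium, Itgb7 and Itgav (adjusted p = 0.00984), and Itgav was also called lower in low versus high (0.00856). Itga1 was then called lower in low versus medium (0.00729), and the calls of Itga9 in low versus medium (0.0582) and Cytip in medium versus high (0.0620) were lost. All genes called rose from 1258 to 1564, from 53 to 61 and from 427 to 629 (low versus high, medium versus high, low versus medium). With only the 2 gates compared these counts were 644, 1 and 211. Without 1 array they spanned 596 to 1243, 2 to 72 and 119 to 522.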
